A study of Mus musculus with 2 samples.

Results

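Interferon-stimulated genes are the genes that cells switch on after they sense an interferon, and the group described here was chosen by gene symbol, from a list of 41 mouse genes that are widely used to read an interferon response. Of these, 40 had a row among the 21829 genes of the deposited tables, and Mx2 was not analysed here. The data were RNA-seq values of C2C12, an immortalised mouse myoblast line that fuses into myotubes when serum is withdrawn. There were 2 libraries, 1 from unedited WT cells and 1 from cells labelled GNE KO, in which Gne, the enzyme that makes the precursor of sialic acid, had been edited with spCas9 and a guide RNA delivered on plasmids by electroporation. Both were grown as myoblasts in DMEM with fetal bovine serum and gentamicin, and the descriptions name no interferon or virus given to either. The KO line was expanded from a single edited cell clone, so a property of that clone and an effect of the Gne edit cannot be told apart. There were no replicates, so every difference below is between 2 libraries and carries no test and no error.

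The values were taken as FPKM, fragments scaled to transcript length and to the depth of the library, which allows levels to be set side by side between genes as well as between libraries. Fold changes are given as log2((KO + 1)/(WT + 1)), and the added 1 draws the values of weakly expressed genes towards 0. A gene was called more than 2-fold higher or lower if this value passed 1 in either direction and its average over both libraries reached 1 FPKM. Gne itself had 6.67 FPKM in WT and 7.34 FPKM in the library labelled KO, which does not check the label, because an edit need not lower the amount of RNA.

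In the pathway these genes belong to, type I interferons bind the receptor made of IFNAR1 and IFNAR2, and the kinases JAK1 and TYK2 then activate transcription factors of the STAT family, which join IRF9 and bind the interferon-stimulated response element, ISRE, in front of target genes. Interferon gamma acts through IFNGR1 and IFNGR2 and a STAT dimer, which binds the gamma-activated sequence, GAS. The products degrade viral RNA, block translation or membrane fusion, or raise the sensitivity of the sensors that make interferon.

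The members did not move as a block between the libraries. Several antiviral effectors and sensors that were low in WT, namely Ifit1, Rtp4, Samd9l, Isg15, Herc6, Ifit3 and Ddx58, were higher in KO, by 2.78-fold for Ddx58 to 23.1-fold for Ifit1 as plain ratios of FPKM. The members that were already well expressed in WT, among them Irf1, Ifit2, Bst2, Samhd1, Adar and Eif2ak2, stayed within 2-fold, and Ifitm1 was lower in KO. Of the 19 members that averaged 1 FPKM or more, 4 were called higher (Ddx58, Isg15, Rtp4 and Samd9l) and 1 lower (Ifitm1), while 2.84% of the 10542 genes past the same limit were called higher and 3.43% lower. Rtp4 and Samd9l reached the limit only through their KO values, so they had to differ to be counted there. Without a limit on the level, 5 of the 40 members were called higher, with Ifit1 as the fifth, beside 1.53% of all genes, and 1 was called lower beside 1.79%. The median log2 fold change of the 19 was -0.02 and that of all 10542 genes 0.01.

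**Figure D1:**
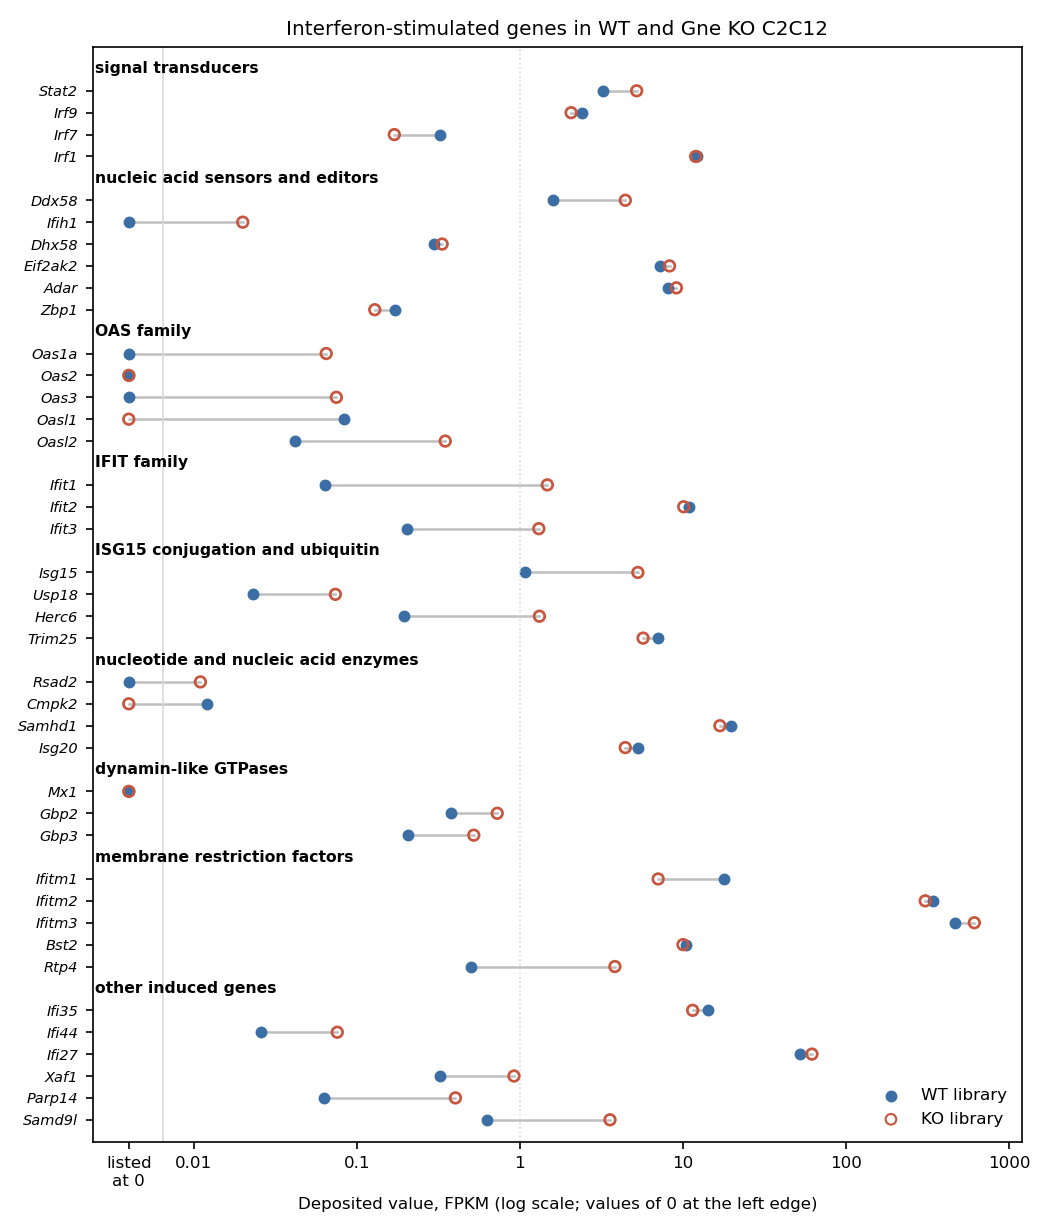
Value of each measured member in the WT library (filled) and the KO library (open), in FPKM on a log scale with values of 0 at the left edge, grouped by the role of the product. The largest distances lie among members under about 1 FPKM in WT, such as Ifit1 at 0.064 against 1.48 FPKM, while Irf1 and Bst2 nearly coincide.

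The sequence in front of the start site was read for the 32 members that have an entry in the RefSeq promoter table for GRCm38.p6, which holds 250 bases before to 50 after each start. Dhx58, Zbp1, Oas2, Usp18, Mx1, Mx2, Rtp4, Ifi27 and Parp14 had no entry. The core of the ISRE was searched as GAAA, any 2 letters and again GAAA, on both strands and with overlapping matches counted. It was found in 15 of the 32 members, 46.9%, and in 3.99% of the 27025 genes with an entry. The GAS was searched as TTC, any 3 letters and GAA, which reads alike on both strands, and was found in 10 of the 32 members, 31.2%, beside 9.55% of all genes. Both motifs stood in the windows of Eif2ak2, Oas1a, Ifitm3 and Bst2, and in Bst2 and Ifitm3 the GAS match overlapped an ISRE core. These matches are descriptions of the letters and show no binding.

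**Figure D2:**
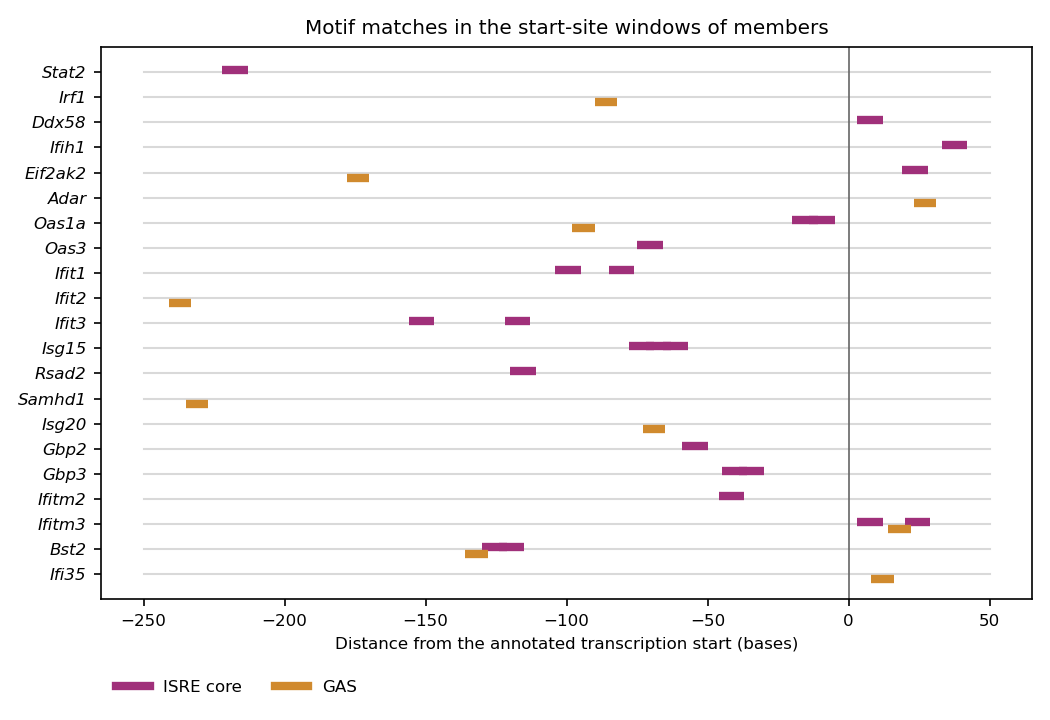
Position of each match to the ISRE core and to the GAS, in bases from the annotated start (0), for the members with at least 1 match. Most ISRE cores lie upstream of the start, as in Ifit1, Ifit3, Isg15, Gbp3 and Bst2, and those of Ddx58, Ifih1, Eif2ak2 and Ifitm3 lie just after it.

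Stretches of 6 of the windows with an ISRE core are printed to show how the element is arranged. They were picked after the values had been seen and only among members that hold a core, so they say nothing about how cores go with the differences between the libraries. Samd9l, which was called higher, and Herc6, Xaf1, Ifitm1 and Ifit2 had windows without these letters. The log2 fold changes of the printed members were 1.60 for Isg15, 1.22 for Ifit1, 0.94 for Ifit3, 0.34 for Gbp3, -0.06 for Bst2 and -0.15 for Ifitm2. Capitals mark matches to the ISRE core, read 5′ to 3′ on the strand of the gene. The stretches lie at chr19:34640760-34640838 on the plus strand (Ifit1), chr19:34583348-34583441 on the plus strand (Ifit3), chr4:156200850-156200921 on the minus strand (Isg15), chr3:142559974-142560039 on the plus strand (Gbp3), chr8:71537562-71537627 on the minus strand (Bst2) and chr7:140955973-140956032 on the minus strand (Ifitm2), all in GRCm38.p6.
Ifit1: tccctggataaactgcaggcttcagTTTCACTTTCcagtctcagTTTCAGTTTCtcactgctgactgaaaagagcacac
Ifit3: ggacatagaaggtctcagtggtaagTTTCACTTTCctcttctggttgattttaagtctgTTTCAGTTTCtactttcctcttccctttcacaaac
Isg15: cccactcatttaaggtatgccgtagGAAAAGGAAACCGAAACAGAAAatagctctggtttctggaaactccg
Gbp3: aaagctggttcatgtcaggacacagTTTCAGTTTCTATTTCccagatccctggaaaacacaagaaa
Bst2: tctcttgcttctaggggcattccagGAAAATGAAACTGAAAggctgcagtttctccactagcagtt
Ifitm2: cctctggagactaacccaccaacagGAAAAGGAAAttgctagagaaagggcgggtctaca

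Ifit1 and Ifit3 each carried 2 separate cores in the orientation opposite to the gene, whereas the 3 cores of Isg15 ran into each other as repeats of a GAAA unit. Bst2 and Gbp3 each had 2 overlapping cores, and Ifitm2 had 1.

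Among the signal transducers, Stat2, the partner that gives the interferon-activated complex its transactivation domain, had 3.25 FPKM in WT and 5.21 FPKM in KO, a log2 fold change of 0.55. Irf9, its DNA-binding subunit, had 2.40 FPKM in WT and 2.06 FPKM in KO. Irf1, a transcription factor induced early by interferon gamma, had 12.17 FPKM in WT and 11.98 FPKM in KO. The subunits of the complex thus showed no common direction. Irf7, the factor that amplifies type I interferon production, was low in both, at 0.322 FPKM in WT and 0.17 FPKM in KO. It was 1 of 4 members above 0 with a mean under 1 FPKM whose value was not higher in KO, together with Zbp1, Oasl1 and Cmpk2.

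Among the sensors and editors of nucleic acids, Ddx58, which encodes the RNA sensor RIG-I, had 1.60 FPKM in WT and 4.44 FPKM in KO, a log2 fold change of 1.07 and just past the limit for a call. The gene spans 40203772 to 40239852 on chromosome 4 of GRCm39. Ifih1, which encodes the long-RNA sensor MDA5, was listed at 0 in WT and at 0.02 FPKM in KO, so the pair of related sensors was expressed at very different levels. Dhx58, the third member of that helicase family and a regulator of the other two, had 0.297 FPKM in WT and 0.334 FPKM in KO. Eif2ak2, the kinase PKR that stops translation when it binds double-stranded RNA, had 7.22 FPKM in WT and 8.28 FPKM in KO. Adar, which edits adenosine to inosine in double-stranded RNA, had 8.11 FPKM in WT and 9.13 FPKM in KO. Zbp1, a sensor of left-handed nucleic acid that can start necroptosis, had 0.172 FPKM in WT and 0.129 FPKM in KO. Within this group Ddx58 alone was called, and the 2 best expressed genes differed by log2 0.17 and 0.15.

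The OAS family makes an oligoadenylate messenger in response to double-stranded RNA, and none of its 5 members reached a mean of 1 FPKM. Oas2 was listed at 0 in both libraries. Oas1a was listed at 0 in WT and at 0.065 FPKM in KO, and Oas3 at 0 and at 0.075 FPKM. Oasl2 had 0.042 FPKM in WT and 0.349 FPKM in KO, and on transcript length its KO value corresponds to at most about 25.4 fragments. Oasl1, which lacks the synthetase activity and restrains the translation of Irf7, went the other way, from 0.083 FPKM in WT to a listed 0 in KO. The summed value of the family was 0.125 FPKM in WT and 0.489 FPKM in KO, so even the higher sum was under the value of most single members in the other groups.

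IFIT1 binds viral RNA by its cap and blocks its translation, and the genes of the IFIT family lie side by side on chromosome 19. Ifit1, spanning 34618271 to 34632174 of GRCm39, had 0.064 FPKM in WT and 1.48 FPKM in KO. Its log2 fold change was 1.22 with the pseudocount of 1 and 3.26 with a pseudocount of 0.1, the latter being the largest of any member. The WT value corresponds to at most about 13.0 fragments and the KO value to at most about 255, so the ratio rests on few reads in WT. Ifit3, of the same cluster, had 0.204 FPKM in WT and 1.31 FPKM in KO, a log2 fold change of 0.94. Ifit2 was the exception of the cluster, with 10.9 FPKM in WT and 10.1 FPKM in KO, a level far above that of its neighbours in either library and a log2 fold change of -0.10. The genes past the level limit within 5 Mb around Ifit1 had a median log2 fold change of -0.03, and the closely related Ifit3b had 0.036 FPKM in WT and 0.136 FPKM in KO. Reads that match both Ifit3 and Ifit3b can be assigned to either, which leaves the level of each uncertain.

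ISG15 is a ubiquitin-like protein that is attached to other proteins after interferon, and its gene spans 156283883 to 156285303 on chromosome 4 of GRCm39. Isg15 had 1.08 FPKM in WT and 5.30 FPKM in KO, a log2 fold change of 1.60 and a plain ratio of 4.90. Its transcript is short, and the values correspond to at most about 23.1 fragments in WT and 96.4 in KO. Herc6, the main ligase for ISG15 in the mouse, had 0.194 FPKM in WT and 1.32 FPKM in KO, a log2 fold change of 0.96 and a plain ratio of 6.80. Usp18, the protease that removes ISG15 and also dampens IFNAR signalling, had 0.023 FPKM in WT and 0.074 FPKM in KO, at most about 3.7 fragments. Trim25, a ubiquitin ligase that activates RIG-I, was the best expressed of the 4 and had 7.02 FPKM in WT and 5.70 FPKM in KO. The modifier and its ligase were therefore higher in KO by several-fold, while the ubiquitin ligase acting on the sensor was lower by less than 2-fold. Of the other enzymes of this route, Ube2l6, the conjugating enzyme, had 15.0 FPKM in WT and 11.0 FPKM in KO, and Uba7, the activating enzyme, 0.38 and 0.549 FPKM.

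Among the enzymes that act on nucleotides and nucleic acids, Samhd1, which hydrolyses deoxynucleotides and so starves reverse transcription, had 19.9 FPKM in WT and 16.9 FPKM in KO. Isg20, an exonuclease for single-stranded RNA, had 5.27 FPKM in WT and 4.43 FPKM in KO. Both were slightly lower in KO, with log2 fold changes of -0.22 and -0.21. Rsad2, which encodes viperin and makes a chain-terminating nucleotide, was listed at 0 in WT and at 0.011 FPKM in KO. Cmpk2, the mitochondrial nucleotide kinase encoded next to it, had 0.012 FPKM in WT and was listed at 0 in KO. Each of these non-zero values amounts to at most about 1.1 fragments, so nothing can be read from their order.

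The dynamin-like GTPases were low in both libraries. Mx1, which blocks influenza and related viruses, was listed at 0 in WT and in KO. Gbp2, a guanylate-binding protein that attacks the vacuoles of intracellular pathogens, had 0.379 FPKM in WT and 0.727 FPKM in KO. Gbp3, a neighbour of the same family, had 0.206 FPKM in WT and 0.522 FPKM in KO. Their log2 fold changes were 0.32 and 0.34, and genes within 5 Mb around them had a median of 0.18 in the same direction. Guanylate-binding proteins are similar to each other, and reads may have been assigned between them.

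The factors that act at membranes made up most of the RNA of the whole group. Ifitm3, which stiffens endosomal membranes against viral fusion, had 465 FPKM in WT and 613 FPKM in KO, ranks 176 and 135 among all genes. Ifitm2 had 341 FPKM in WT and 306 FPKM in KO. Together they held 82.0% of the summed member FPKM in WT and 82.9% in KO. Ifitm1, which acts more at the cell surface, had 17.8 FPKM in WT and 7.05 FPKM in KO, a log2 fold change of -1.23 and a plain ratio of 2.53 in favour of WT. These 3 genes lie within the same stretch of chromosome 7, with Ifitm1 at 140546316 to 140549743 of GRCm39, and yet their log2 fold changes were -1.23, -0.15 and 0.40. Of the related genes above 0, Ifitm10 was lower in KO, with 1.48 FPKM in WT and 0.403 FPKM in KO, and 2 were higher, Ifitm5 with 0.251 and 0.67 FPKM and Ifitm6 with 0.61 and 0.909 FPKM. The IFITM genes are similar in sequence, and reads shared between them may have been split.

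Bst2, also called tetherin, which holds budding virus particles on the cell, had 10.5 FPKM in WT and 10.0 FPKM in KO and was thus nearly the same in both. Rtp4, a chaperone of membrane receptors that also restricts RNA virus replication, had 0.501 FPKM in WT and 3.83 FPKM in KO. Its log2 fold change of 1.69 was the largest of the members called. Rtp4 lies on chromosome 16 of GRCm39 from 23337811 to 23432972, and genes within 5 Mb had a median log2 fold change of -0.0019.

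Of the remaining members, Samd9l, a cytoplasmic factor that restricts poxviruses and cell growth, had 0.628 FPKM in WT and 3.57 FPKM in KO, a log2 fold change of 1.49. It lies on chromosome 6 of GRCm39 from 3372257 to 3405056, where neighbours had a median of 0.14. Parp14, an ADP-ribosyltransferase, had 0.063 FPKM in WT and 0.403 FPKM in KO. Xaf1, an antagonist of the apoptosis inhibitor XIAP, had 0.324 FPKM in WT and 0.921 FPKM in KO, with a log2 fold change of 0.54. Ifi44 had 0.026 FPKM in WT and 0.076 FPKM in KO, at most about 7.2 fragments. Samd9l was thus the only one of this set past the limit. Ifi27, a mitochondrial protein gene, was well expressed with 52.2 FPKM in WT and 61.9 FPKM in KO. Ifi35, a partner of NMI, had 14.4 FPKM in WT and 11.5 FPKM in KO.

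Low and high members differed in how often the KO value was the larger one. Of the 19 members above 0 with a mean under 1 FPKM, 15 had the higher value in KO, beside 50.6% of the 3931 genes in that range. Ifih1, Oas1a, Oas3 and Rsad2 were listed at 0 in WT and were above 0 only through KO, so they had to be higher there. Cmpk2 and Oasl1 were listed at 0 in KO and had to be lower. Of the 19 better expressed members, 9 had the higher value in KO and 10 in WT, beside 50.7% of 10542 genes. With a pseudocount of 0.1, which shows the change of low genes more fully, 7 of the low members were past 2-fold upward and 0 downward, beside 11.4% and 10.9% of the low genes. Their median log2 fold change on this scale was 0.72, against 0.01 for all low genes. Many of these values rest on few fragments, and among the 11 low members with an upper estimate of at least 10 fragments in a library, 9 were higher in KO and Irf7 and Zbp1 were not, beside 50% of 1569 genes under the same limit. Oasl2 met this limit only through its KO value, with at most about 3.6 fragments in WT and 25.4 in KO. The members were chosen with earlier results of these data known, and neighbours and paralogs are not independent of each other.

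**Figure D3:**
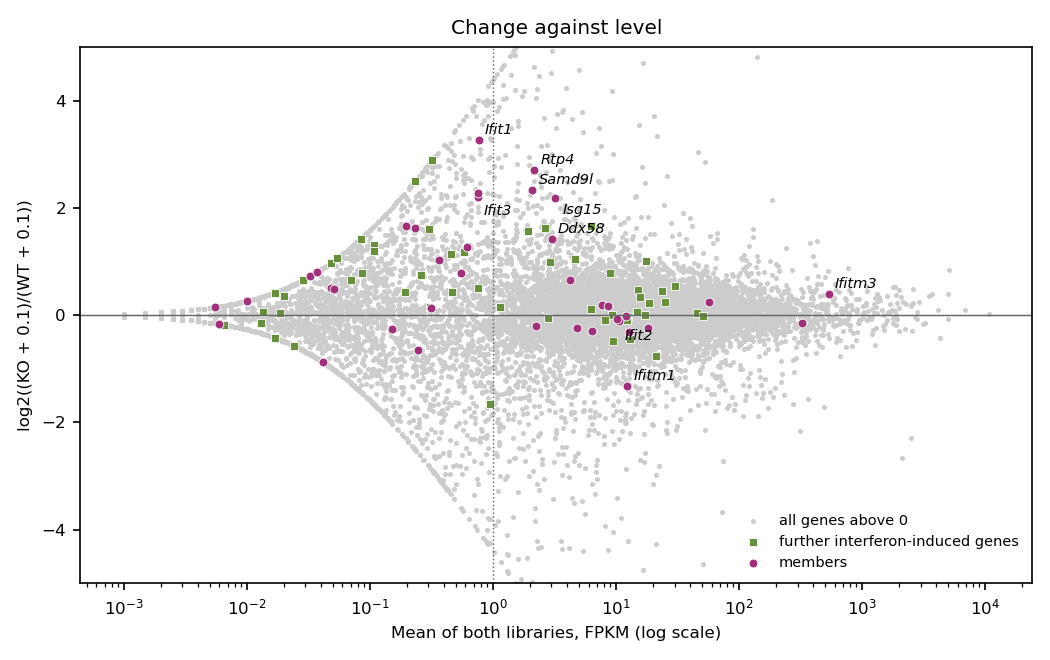
log2((KO + 0.1)/(WT + 0.1)) of each gene above 0 in at least 1 library against its mean FPKM (log axis), with members and further interferon-induced genes marked, and with 53 genes lying outside the plotted range. Members with a mean near 1 FPKM sit above 0, up to 3.26 for Ifit1, and those near 10 FPKM scatter around 0 except Ifitm1 at -1.33.

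The size of each fold change depended on the pseudocount because most differing members were low. For Isg15 the log2 fold change was 2.19 with a pseudocount of 0.1, 1.60 with 1 and 0.76 with 5. For Samd9l these values were 2.33, 1.49 and 0.61. For Ifitm1, which was better expressed, they were -1.33, -1.23 and -0.92. A pseudocount cannot change the direction of a difference, only its size, and with a pseudocount of 5 no member was past the limit.

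**Figure D4:**
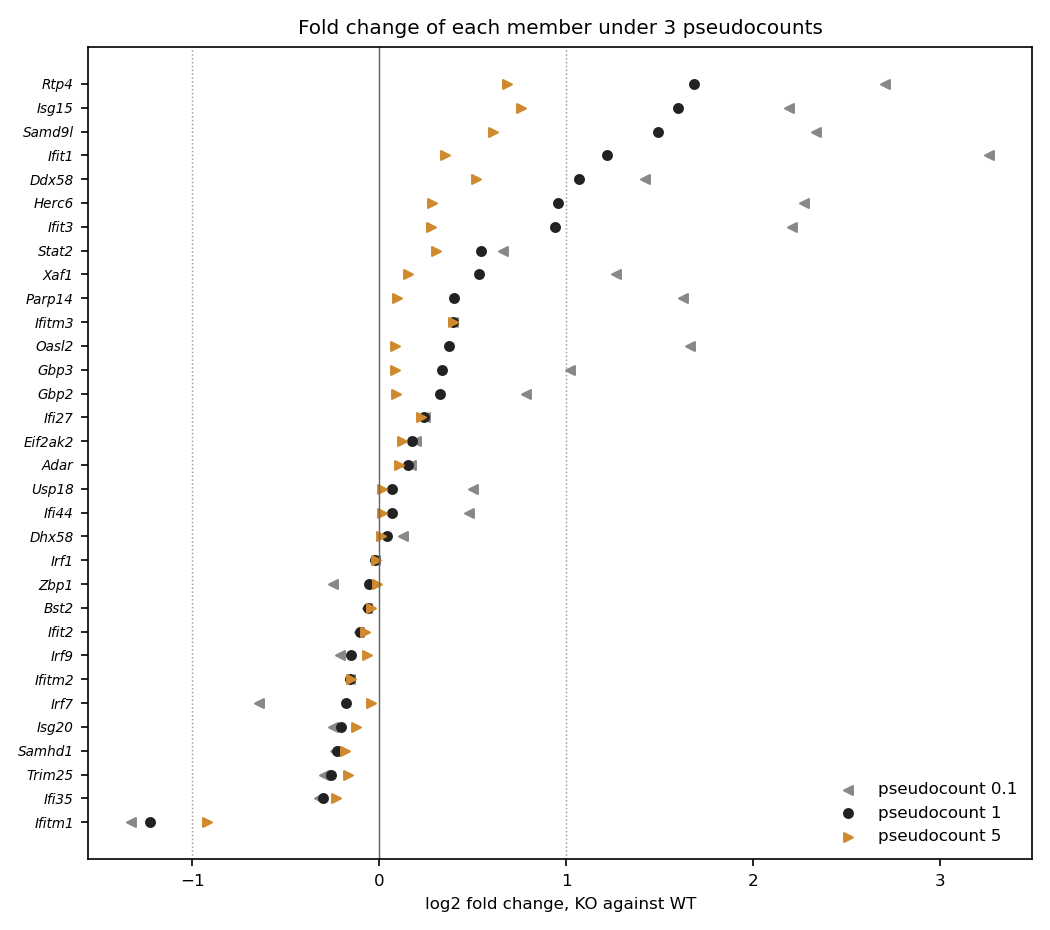
log2 fold change of the 32 members above 0 in both libraries with pseudocounts of 0.1, 1 and 5, sorted by the value with 1, with dotted lines at the limits of a call. Points spread widely for low members such as Ifit1 and Herc6 and coincide for Ifitm2, Ifitm3 and Ifi27.

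The summed value of the 40 members was 983 FPKM in WT and 1109 FPKM in KO, a ratio of 1.13. This sum followed Ifitm3, and without it the ratio was 0.96. Without the IFITM genes and Ifi27 the other 36 members summed to 107 FPKM in WT and 120 FPKM in KO, a ratio of 1.12. A summed level therefore says little about the low members that differed most. In RNA from a whole culture, more cells that express a gene and more RNA per expressing cell cannot be told apart.

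Upstream of the members, all 21 genes for interferon ligands were listed at 0 in both libraries, including the alpha family, Ifnb1 and Ifng. The receptor genes were expressed and stayed within 2-fold. Ifnar1 had 20.4 FPKM in WT and 15.1 FPKM in KO, and Ifnar2 had 17.0 FPKM in WT and 11.4 FPKM in KO. Both subunits of the type I receptor were lower in KO, by log2 fold changes of -0.41 and -0.54. Ifngr1 had 14.2 FPKM in WT and 20.7 FPKM in KO, and Ifngr2 had 11.6 FPKM in WT and 16.3 FPKM in KO. Both subunits of the interferon gamma receptor were higher, by 0.51 and 0.46. Ifnar1, Ifnar2, Il10rb and Ifngr2 are neighbours on chromosome 16. Genes within 5 Mb around Ifnar1 had a median log2 fold change of -0.33. Relative to their neighbours, Ifnar1 differed by -0.08, Ifnar2 by -0.20 and Ifngr2 by 0.79. Il10rb, shared by interferon lambda and interleukin receptors, had 11.6 FPKM in WT and 9.24 FPKM in KO, and Ifnlr1 was listed at 0 in both.

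None of the 10 genes for receptor kinases, STATs and negative regulators was called, beside 2.84% of all genes called higher and 3.43% lower. Among so few genes, the lack of a call says little about this group. Among the kinases, Jak1 had 30.5 FPKM in WT and 37.5 FPKM in KO, and Tyk2 had 5.66 FPKM in WT and 6.67 FPKM in KO. Both kinases thus stayed within 2-fold. Irf2, a repressor of interferon targets, had 6.97 FPKM in WT and 7.89 FPKM in KO. Irf3, the factor that starts interferon transcription, had 18.8 FPKM in WT and 14.7 FPKM in KO. Irf5, a factor of myeloid cells above all, had 0.072 FPKM in WT and 0.682 FPKM in KO, at most about 12.7 and 102 fragments, and a plain ratio of 9.47. Of the 34 upstream genes past the level limit, 1 was called higher, 2.94%, and 0 lower, beside 2.84% and 3.43% of all genes. The count of calls was thus near the share of all genes. The gene called was Tmem173, which encodes STING, the adaptor of cytosolic DNA sensing, with 4.55 FPKM in WT and 12.3 FPKM in KO. Its log2 fold change was 1.26. Cgas, the DNA sensor that makes the messenger for STING, had 5.19 FPKM in WT and 3.41 FPKM in KO and so went the other way. Mavs, the mitochondrial adaptor of RIG-I, had 16.8 FPKM in WT and 18.7 FPKM in KO. Tbk1, the kinase that activates Irf3, had 15.4 FPKM in WT and 15.6 FPKM in KO.

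**Figure D5:**
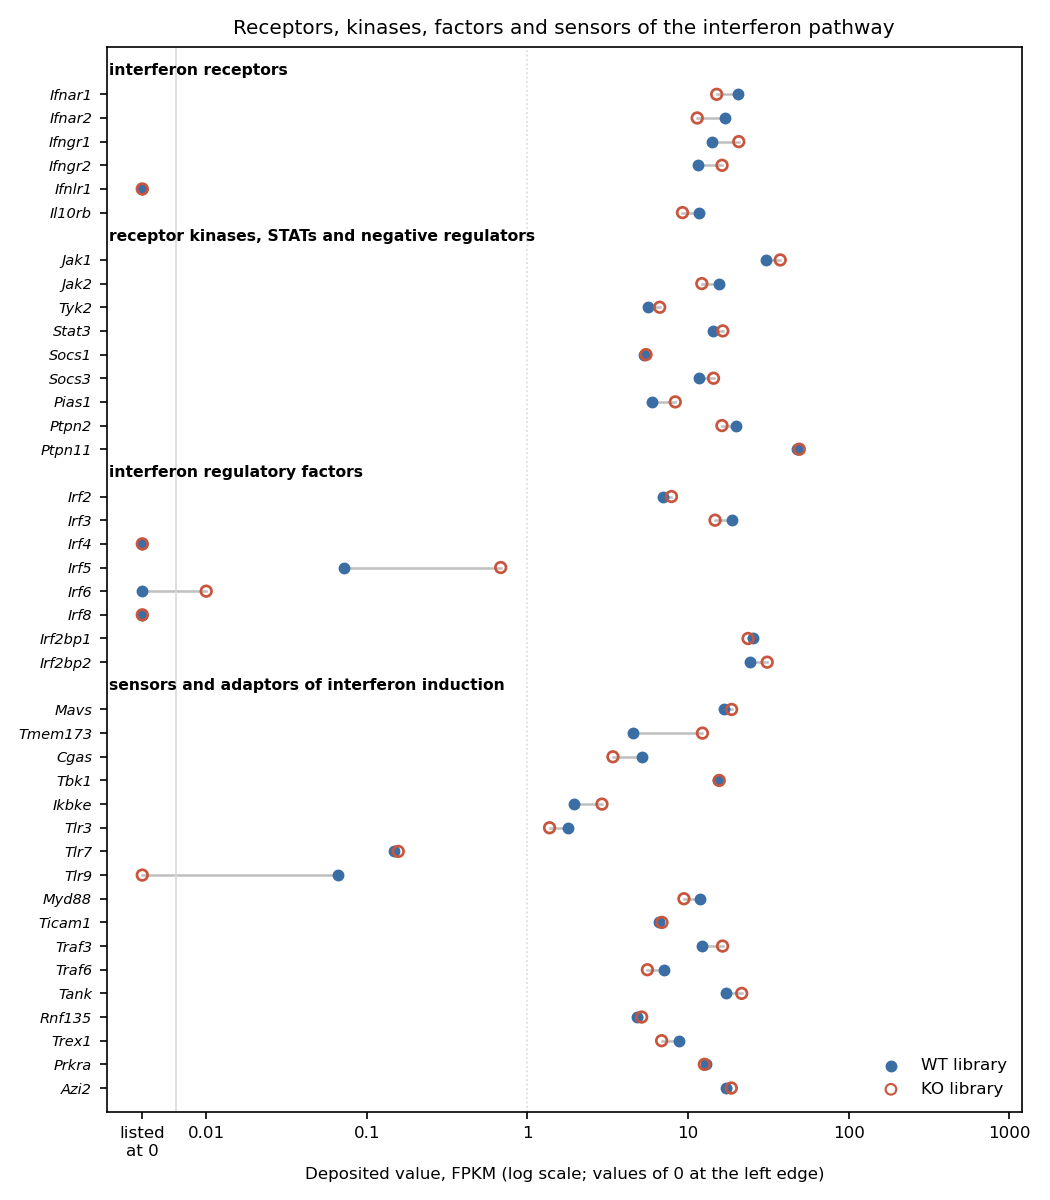
Values of receptors, kinases, factors and sensors upstream of the members in the WT library (filled) and the KO library (open), in FPKM on a log scale. Most pairs lie close together between 5 and 50 FPKM, Tmem173 lies to the right in KO, and Irf5 lies under 1 FPKM in both, at 0.072 in WT and 0.682 in KO.

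A further list of 63 interferon-induced genes outside the members was written from general knowledge of the pathway, with earlier results of these data known. This list had 60 rows. Of its 27 genes past the level limit, 3 were called higher and 0 lower, beside the 2.84% and 3.43% of all genes given above. These were Ifi203, with 2.96 FPKM in WT and 9.57 FPKM in KO, Mndal, with 1.25 FPKM in WT and 4.07 FPKM in KO, and Dtx3l, with 0.928 FPKM in WT and 2.96 FPKM in KO. Ifi203 and Mndal belong to the family of DNA-binding proteins with a HIN domain, lie in the same gene cluster and are similar, so reads may have been assigned between them. The better expressed genes of this cluster on the list stayed within 2-fold. Ifi204 had 17.1 FPKM in WT and 20.2 FPKM in KO, and Ifi202b had 44.9 FPKM in WT and 45.9 FPKM in KO. Aim2, another gene of the HIN family, was not on the list and had 0.015 FPKM in WT and 8.52 FPKM in KO. Dtx3l, a ubiquitin ligase that pairs with Parp9 and shares its stretch of chromosome 16 with Parp14, passed the level limit only through its KO value. The median log2 fold change of the 27 was 0.10. Below the limit, 22 of 27 genes above 0 had the higher value in KO and 5 the lower one, beside 50.6% of all low genes. Of these 27, 7 were listed at 0 in WT and so had to be higher, and 3 were listed at 0 in KO and had to be lower. Many of the values rest on few fragments, such as at most about 2.0 in WT and 6.5 in KO for Ifit3b. The list includes IFITM relatives such as Ifitm5, higher in KO, and Ifitm10, lower in KO, whose induction by interferon was not checked.

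The cell type label was checked with markers. Of 13 myoblast markers, the summed value was 286 FPKM in WT and 93.6 FPKM in KO. Of the 8 past the level limit, 4 were called lower and 1 higher, beside 3.43% and 2.84% of all genes. The other 3, Itga7, Ncam1 and Tnnt2, stayed within 2-fold. Myod1 went from 60.0 FPKM in WT to a listed 0 in KO, and Des from 97.6 to 3.84 FPKM, while Myf5 had 9.14 FPKM in WT and 20.3 FPKM in KO. The library labelled KO thus lacked RNA of a defining myoblast factor, and the part of that difference in the values of the members was not tested. Of 10 leukocyte markers, 6 were listed at 0 in both libraries, among them Ptprc, Itgam and Adgre1, and the list summed to 3.82 FPKM in WT and 2.12 FPKM in KO. The endothelial markers Cdh5 and Kdr were listed at 0 in both. Of the leukocyte markers, Cd68 had the largest value, with 2.85 FPKM in WT and 1.06 FPKM in KO. Cd74, with 0.721 and 0.545 FPKM, was also lower in KO. Lyz2, with 0.191 and 0.438 FPKM, and Csf1r, with 0.054 and 0.078 FPKM, had the higher value in KO. The part of other cell types in the values of the members was not tested. Genes above 0 numbered 13709 in WT and 13589 in KO. The smallest steps between low values put 1 fragment at 0.0367 FPKM times kilobase in WT and 0.043 in KO, so the KO library was estimated to be shallower by a factor of 1.17, and the number of reads is unknown.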

How the data were processed

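RNA was extracted from WT and GNE KO C2C12 cells, and 1 library per line was sequenced. The labels name a stranded Illumina kit with paired reads, whereas the supplementary methods name a directional MGI kit. According to the submitters' processing notes, FastQC, Trim Galore 0.6.6, STAR 2.7.9a and RSEM 1.3.3 were used. The methods name the mouse build GRCm39, and the notes list GRCm38 and GRCh38. The files deposited by the authors hold a single column of values by gene symbol, which were read as FPKM. No header names this unit, and TPM over a larger gene set remains possible. RSEM divides reads shared by similar genes by estimate, so paralogs can exchange reads, and values near 0 rest on few reads. Counting intervals are left out because the read numbers are unknown.

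Of 21853 rows in each file, 24 had a symbol that occurred before, and of such rows the one with the larger mean was used. The value computed for each gene was log2((KO + 1)/(WT + 1)), with a mean of at least 1 FPKM required for a call beyond 1. No count model and no p-value was used. The members and all gene lists were chosen with earlier results of these data known. All members were named, and of the pathway lists the genes past the limit for a call, the receptors and a fixed set of further genes, some of which are not reported here. Ube2l6, Uba7, Ifit3b, Ifitm5, Ifitm6, Ifitm10, Ifi204, Ifi202b, Irf5 and Aim2 were named after their values were seen.

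Gene positions and the longest transcript of each gene came from GENCODE vM39 on GRCm39, and promoter windows from RefSeq on GRCm38.p6. Fragment numbers were estimated as FPKM times the longest transcript, divided by the smallest common step of low genes with a single transcript (248 genes in WT and 268 in KO), which makes them upper estimates. Neighbouring genes were those past the level limit within 5 Mb on either side. The calling of genes was tested on simulated data, with changes planted only in genes of at least 5 FPKM in WT. None of the members called higher reached that level in WT, so the simulation does not cover their calls. Alternatives were pseudocounts of 0.1 and 5, no limit on the level, a mean of at least 5 FPKM, scaling by the median of ratios, centring on neighbouring genes and summing of repeated symbols. The software was matplotlib 3.10.9, scipy 1.17.1, pandas 2.3.3 and numpy 2.4.6 in Python 3.11.15.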

Additional observations from a re-analysis of the deposited data

How the results depend on the processing

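Leaving out a library was not possible with 1 library per line, and no difference has a replicate check. No paired analysis was possible because the values come from no test and the lines share only 1 replicate number. Of the 4 members called higher and 1 called lower, 0 and 0 were called with a pseudocount of 5, and 0 were called higher among genes averaging 5 FPKM or more, since the members called higher have means under 5 FPKM. Among all genes, the 299 called higher became 102 with a pseudocount of 5 and 145 among genes averaging 5 FPKM or more, and the 362 called lower became 176 and 221. The median log2 fold change of the members, -0.02, became 0.0694 with no limit on the level and 0.0068 when the median of neighbouring genes was subtracted, so its sign is not fixed by these data. The ratio of summed values, 1.13, became 0.956 without Ifitm3. The 15 low members with the higher value in KO became 9 of 11 under the limit of 10 fragments, a setting chosen after the data were seen. The calls of Ddx58, Isg15, Rtp4, Samd9l and Ifitm1 were the same ones with a pseudocount of 0.1, scaling by the median of ratios (a factor of 1.0046), subtraction of the neighbours' median and summed repeated symbols. Subtraction of the neighbours' median turned the sign of 3 members with small values, Irf1 from -0.02 to 0.0068, Cmpk2 from -0.02 to 0.05 and Ifi44 from 0.07 to -0.11. Scaling and summed repeated symbols turned the sign of no member, and a pseudocount cannot turn a sign.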
